A study of Mus musculus with 6 samples.

Results

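The 8 genes described here are known from stem cells and early progenitors of bone marrow and are switched off as blood cells mature: Cd34, Sox4, Myb, Meis1, Hoxa9, Hoxa7, Erg and Mycn. They form a list of gene names, and all 8 had a row among the 34745 genes of the count table. RNAseq was performed on monocytic myeloid-derived suppressor cells (M-MDSCs), immature monocyte-like cells that restrain T cells, with 3 libraries per group. The cells came from bone marrow, were induced with GM-CSF and IL-6 in culture per the study's methods, and were sorted. Those methods name C57BL/6 for purchased WT mice and give no strain for the Lyz-Cre and floxed mice, which another institute provided. A difference of strain or source between the groups cannot be told apart from the deletion here. The WT group carried no targeted allele. The mTOR-/- group came from Lyz-mTOR mice, in which Cre under the control of a lysozyme gene removes the floxed mTOR gene. That Cre acts in myeloid cells, so the deletion follows the start of myeloid differentiation and need not be present in the stem cells from which the culture grew. Ages of the mice were not given in the labels. The study's methods give for the mice of each group an n equal to the number of libraries, without stating that each library was a separate animal, and the labels do not state it either. If they were not separate, p-values measure only a technical spread between these libraries.

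CD34 is a sialomucin on the surface of stem and progenitor cells. The other 7 genes encode transcription factors. Hoxa9 and Hoxa7 are homeobox factors that keep progenitors in an immature state, and MEIS1 binds DNA together with them. MYB drives the growth of progenitors, SOX4 is an HMG-box factor of immature lymphoid and myeloid cells, ERG is an ETS factor needed to maintain stem cells, and MYCN is a relative of MYC. Most are lowered as a progenitor turns into a monocyte or granulocyte.

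The libraries held 12317507 to 12903191 counts in the mTOR-/- group and 14066578 to 14768126 in the WT group. A filter on low counts left 12537 genes for testing, all 8 progenitor genes among them. The study states that depletion of mTOR in its MDSCs was verified, which was not examined here. Mtor, the targeted gene, was counted over its whole length. The lowest count was 875 in WT replicate 2 and the highest 983 in mTOR-/- replicate 2 (log2 fold change 0.15, adjusted p = 0.442, edgeR). Such a count cannot show whether the floxed part was lost, so mTOR-/- stands here for the libraries labelled so. mTOR-/- replicate 3 stood apart from the other libraries of its group, with Pearson correlations of 0.952 and 0.955 across genes against 0.973 between replicates 1 and 2, and values without it are given where they change a call, turn a sign or move a value widely. The listed markers of monocytic MDSCs, Itgam, Csf1r, Ly6c1, Ly6c2, Ccr2 and Lyz2, had at least 95 counts in every library. Of these only Itgam, which encodes CD11b, and the Ly6C genes Ly6c1 and Ly6c2 stand for antigens by which the study defines M-MDSCs. Itgam stood under 2 overlapping identifiers, between which reads can be divided, and was counted as 2 rows. The 9 markers of T and NK cells summed to at most 1.14 CPM (counts scaled to library size with TMM factors) in any library, and Cd3e, Cd8a, Ncr1 and Gzma were at 0. The neutrophil list summed to 1667 to 1826 CPM under mTOR-/- and 1569 to 1807 CPM under WT, the B lineage list to 6.18 to 9.94 CPM and 6.56 to 8.83 CPM, and the stromal list to 20.7 to 38.8 CPM and 31.1 to 33.6 CPM. Of the neutrophil markers Ly6g, whose antigen M-MDSCs lack by the study's definition, was at 13.3 ± 2.31 CPM under mTOR-/- and 2.77 ± 2.13 CPM under WT (mean ± SD, n = 3 each). Ly6g rose by 2.27 on the log2 scale (edgeR adjusted p = 0.0365, and 0.0726 without mTOR-/- replicate 3). Ltf fell by 2.04 (edgeR adjusted p = 0.00213), while Ngp fell by 0.56 and S100a8 rose by 0.62 (edgeR adjusted p = 0.0343 and 0.0305, the latter 0.0605 without mTOR-/- replicate 3). The most abundant, Lcn2 and S100a9, were at 0.17 and 0.04, the latter -0.08 without mTOR-/- replicate 3, and did not pass. The monocytic MDSC markers summed to 2479 to 2892 CPM under mTOR-/- and 3949 to 5642 CPM under WT. Among them Lyz2 fell by 1.68 on the log2 scale (edgeR adjusted p = 0.00255), with 1024 ± 153.1 CPM under mTOR-/- and 3281 ± 840.0 CPM under WT (mean ± SD, n = 3 each). Lyz2 made up most of the gap between the sums, and the part of the Cre allele in its value was not tested. Ly6c2, a gene of the Ly6C antigen used in the sort, was at -0.9987 (edgeR adjusted p = 0.0426), just short of a fold of 2. Without mTOR-/- replicate 3 Ly6c2 was at -1.15 and was a DEG (edgeR adjusted p = 0.0438). Csf1r rose by 0.50 (edgeR adjusted p = 0.0136). Ccr2 and Ly6c1 were at 0.65 and 0.28 and the 2 rows of Itgam at -0.16 and 0.01, without passing. The 2 rows of Itgam were at -0.34 and 0.32 without mTOR-/- replicate 3. No gene of the B lineage or stromal list was a DEG, beside 1.69% of all tested genes. The most abundant of the B lineage, Ighm and Cd79b, were at -0.65 and 0.57. Those of the stromal list, Pdgfrb and Col1a1, were at -0.05 and -0.81, or -0.24 and -2.08 without mTOR-/- replicate 3, without passing. Igll1 and Dntt of the B lineage and Col3a1, Dcn, Lum and Cxcl12 of the stroma were at 0 in every library.

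Levels of different genes can be set side by side only per length, for which the deposited FPKM values were used. Myb was the highest of the 8, with a mean of 23.1 FPKM over the 6 libraries, above 87.8% of the 17309 genes detected. Sox4 followed at 5.37 FPKM, Cd34 at 3.34 FPKM and Erg at 1.68 FPKM. Hoxa9 was at 0.952 FPKM, Hoxa7 at 0.434 FPKM, Mycn at 0.365 FPKM and Meis1 at 0.192 FPKM, so the level of the highest was 120.5 times that of the lowest. The gene lengths implied by these values were 4359 bases for Mycn, 4795 for Sox4, 9833 for Cd34 and 22450 for Meis1. Both the order and the ratio depend on these lengths. By mean count Cd34 (443.2) stood above Sox4 (348.3), and Meis1 (58.8) above Mycn (21.8). The steps from Myb to Sox4, from Sox4 to Cd34 and from Cd34 to Erg held in every pair of libraries. Below Cd34 the ranges of neighbours overlapped: the level of Erg was above that of Hoxa9 in 5 of 6 libraries, Hoxa7 above Mycn in 4 and Mycn above Meis1 in 5. Hoxa9 was above Hoxa7 in 6 of 6 libraries, although the highest value of Hoxa7 and the lowest of Hoxa9 were both 0.757 FPKM. These low values rest on few reads, with a mean of 21.8 counts per library for Mycn, 32.2 for Hoxa7 and 58.8 for Meis1.

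None of the 8 genes passed the test for a difference between mTOR-/- and WT M-MDSCs. Differentially expressed genes (DEGs) were those that differed by a fold of at least 2 with an adjusted p under 0.05, from the quasi-likelihood F test of edgeR over all 12537 tested genes. By this rule 1.69% of the tested genes were DEGs, and 0 of the 8 were, with adjusted p between 0.501 and 0.987. With the fold threshold dropped the number was again 0, beside 4.04% of all tested genes, and 0 had an unadjusted p under 0.05, beside 21.2%. DESeq2 called 0 of the 8 and 2.01% of its genes, and edgeR's exact test called 0 of the 8 and 3.02%. In the other alternative fits 0 of the 8 were DEGs, beside 0.892% to 1.78% of all genes tested there. Of the 8, 5 had higher values in the mTOR-/- libraries, beside 50.6% of all tested genes. The ranges of the groups overlapped in all 8 genes, while 28.4% of all tested genes had groups that did not overlap in CPM. The median log2 fold change of the 8 was 0.02, beside 0.00 for all tested genes, and their median absolute log2 fold change was 0.22, the same as that of all tested genes. Their summed level was 213.6 ± 24.7 CPM under mTOR-/- and 213.2 ± 14.1 CPM under WT (mean ± SD, n = 3 each), most of it from Myb.

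**Figure D1:**
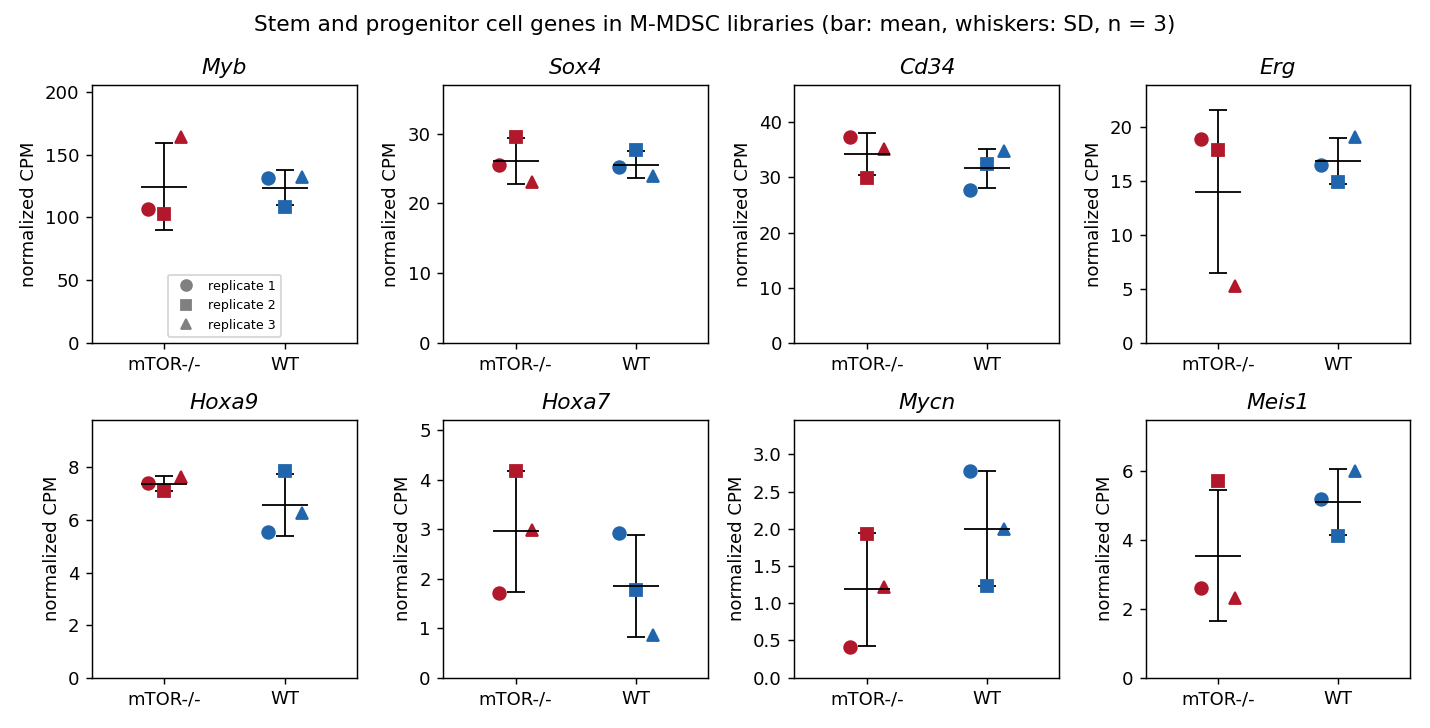
Normalized CPM of each of the 8 genes (vertical axes from 0) in the 3 mTOR-/- and 3 WT libraries, in order of level per length. Each point is a library, with the replicate number given by its shape, the bar is the group mean and the whiskers are the SD; the groups overlap in every panel, and mTOR-/- replicate 3 lies highest for Myb and lowest for Erg.

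The absence of a call does not carry the same weight for every gene. For Cd34, Sox4, Myb and Hoxa9 the whole 95% interval of the log2 fold change lay within a fold of 2 in either direction. For Meis1, Hoxa7, Erg and Mycn it reached past a fold of 2 on 1 side, so a change of that size was not excluded by these libraries.

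Cd34, the surface marker, had 37.4, 30.0 and 35.2 CPM in mTOR-/- replicates 1, 2 and 3 and 27.7, 32.4 and 34.8 CPM in the WT replicates. The highest value was in an mTOR-/- library and the lowest in a WT library, but the groups overlapped widely. Its log2 fold change was 0.11 (standard error 0.15, 95% interval -0.22 to 0.44, edgeR adjusted p = 0.707), which places the fold change between 0.859 and 1.36. Cd34 (ENSMUSG00000016494) spans 194938819 to 194961279 on chromosome 1, forward strand (mm10, as are all positions). It shares its 3′ end with the antisense gene Gm16897, which had 0 to 4 counts per library.

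Hoxa9 was the steadiest of the 8 genes within the mTOR-/- group. It had 7.42, 7.10 and 7.65 CPM in mTOR-/- replicates 1, 2 and 3, a coefficient of variation of 3.72%, and 5.54, 7.86 and 6.27 CPM in the WT replicates. All mTOR-/- values lay inside the range of the WT values. The log2 fold change was 0.17 (standard error 0.24, 95% interval -0.36 to 0.71, adjusted p = 0.724, edgeR). Hoxa7, its neighbour, had 1.71, 4.17 and 2.98 CPM in the mTOR-/- replicates and 2.91, 1.78 and 0.855 CPM in the WT replicates. The highest library was mTOR-/- replicate 2 and the lowest WT replicate 3, with only 12 counts, and 4 libraries lay mixed between them. Its log2 fold change of 0.68 had a standard error of 0.55 and a 95% interval of -0.57 to 1.92 (adjusted p = 0.519, edgeR). Without WT replicate 1 it rose to 1.15, and without WT replicate 3 it was 0.33, neither past the threshold.

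Both genes lie on the reverse strand of chromosome 6, Hoxa7 (ENSMUSG00000038236) from 52214491 to 52221854 and Hoxa9 (ENSMUSG00000038227) from 52223100 to 52231089, with 1245 bases between them. The 3′ end of Hoxa7 is shared with the antisense gene Hoxaas3, which had 9, 3 and 10 counts in mTOR-/- replicates 1, 2 and 3 and 6, 0 and 9 counts in the WT replicates. These are not small beside the lowest counts of Hoxa7. The Hoxa9 locus also holds Mir196b, a microRNA gene known to act on Hox messages, whose hairpin spans 52230081 to 52230165 on the same strand. The mature microRNA was not measured here, and its sequence is shown because the hairpin sits inside 1 of the 8 genes while the matches to its seed stand mostly in another. The mature miR-196b-5p is given 5′ to 3′ from RefSeq (GRCm38.p6) with its seed, bases 2 to 8, in capitals, followed by the stretches of the annotated 3′ UTRs of Hoxa7, Hoxa9 and Erg (GENCODE M21, sense strand) that hold ACTACCT, the reverse complement of the seed, in capitals.
mmu-miR-196b-5p: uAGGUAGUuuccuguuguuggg
Hoxa7, base 310 of the 3′ UTR: gcacagccaaaatACTACCTag
Hoxa7, base 347 of the 3′ UTR: gaggcactcccaaACTACCTat
Hoxa7, base 479 of the 3′ UTR: aaccatgatcaatACTACCTac
Hoxa7, base 500 of the 3′ UTR: ctactagccctaaACTACCTat
Hoxa9, base 337 of the 3′ UTR: aaaaggaaagaaaACTACCTtt
Erg, base 428 of the 3′ UTR: catttgaagggaaACTACCTgt
The 4 matches of Hoxa7 fall in a 3′ UTR of 1219 bases, and the longest annotated 3′ UTRs of Cd34, Sox4, Myb, Meis1 and Mycn held 0 matches on the sense strand, the only strand searched. Of 21020 genes with an annotated 3′ UTR, 6.1% held at least 1 match. These letters describe the sequence, and the counts per gene do not show whether the microRNA acted on it.

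Meis1, the partner of the HOX proteins, had 2.61, 5.71 and 2.30 CPM in mTOR-/- replicates 1, 2 and 3 and 5.19, 4.10 and 5.98 CPM in the WT replicates. Replicates 1 and 3 of the mTOR-/- group lay below every WT library, while replicate 2 lay inside the WT range. The log2 fold change was -0.52 (standard error 0.41, 95% interval -1.45 to 0.40, adjusted p = 0.501, edgeR). It was -0.35 without mTOR-/- replicate 1 and -0.29 without replicate 3. Without replicate 2 it was -1.06, with an adjusted p of 0.138 from the same edgeR test, the lowest adjusted p of any of the 8 genes in any alternative. The counting intervals of these libraries did not overlap: the 74 counts of mTOR-/- replicate 2 had an exact Poisson 95% interval of 58.1 to 92.9, and the 30 counts of replicate 3 one of 20.2 to 42.8. Meis1 (ENSMUSG00000020160) spans 18879817 to 19018985 on the reverse strand of chromosome 11.

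Myb (ENSMUSG00000019982, chromosome 10, 21124936 to 21160905) had 106.3, 102.4 and 164.4 CPM in mTOR-/- replicates 1, 2 and 3. The WT replicates had 131.0, 107.9 and 132.4 CPM. The highest and the lowest library were both mTOR-/- libraries, replicates 3 and 2, and the WT values lay between them. The group means were almost equal, at 124.3 ± 34.7 CPM (SD, n = 3) and 123.8 ± 13.7 CPM (SD, n = 3), with a log2 fold change of 0.01 (standard error 0.18, 95% interval -0.40 to 0.41, adjusted p = 0.987, edgeR). This balance depends on mTOR-/- replicate 3: without it the log2 fold change of Myb was -0.25 (standard error 0.11, adjusted p = 0.272, edgeR), which did not pass the threshold.

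Erg (ENSMUSG00000040732, chromosome 16, 95359169 to 95586593) had 18.8, 17.8 and 5.28 CPM in mTOR-/- replicates 1, 2 and 3 and 16.4, 14.9 and 19.1 CPM in the WT replicates. Replicates 1 and 2 lay inside the WT range, and replicate 3 lay far below all other libraries. Counts were 231 in replicate 1 and 231 in replicate 2 (exact Poisson 95% interval 202.2 to 262.8 for each) against 69 in replicate 3 (interval 53.7 to 87.3). The log2 fold change over all libraries was -0.27 (standard error 0.39, 95% interval -1.13 to 0.60, adjusted p = 0.739, edgeR). Without mTOR-/- replicate 3 its sign turned, to 0.12 (standard error 0.16, adjusted p = 0.754, edgeR).

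Sox4 (ENSMUSG00000076431, chromosome 13, 28948919 to 28953713) had 25.4, 29.6 and 23.1 CPM in mTOR-/- replicates 1, 2 and 3 and 25.2, 27.6 and 23.9 CPM in the WT replicates. The 2 groups covered nearly the same range. The log2 fold change was 0.03 (standard error 0.15, 95% interval -0.31 to 0.36, adjusted p = 0.939, edgeR), so the fold change lay between 0.808 and 1.29. Its sign turned when mTOR-/- replicate 2 or WT replicate 3 was left out, at -0.08 and -0.02.

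Mycn (ENSMUSG00000037169, chromosome 12, 12936096 to 12941914) was the most sparsely counted, with 5, 25 and 16 counts in mTOR-/- replicates 1, 2 and 3 and 39, 18 and 28 counts in the WT replicates. In normalized units these were 0.408, 1.93 and 1.22 CPM and 2.77, 1.23 and 1.99 CPM. The lowest library was an mTOR-/- library and the highest a WT library, and the other 4 were mixed. The log2 fold change was -0.74 (standard error 0.63, 95% interval -2.16 to 0.67, adjusted p = 0.534, edgeR). It was -1.29 without mTOR-/- replicate 2 and -0.34 without mTOR-/- replicate 1. Its relative Myc, at 131.3 ± 22.08 CPM (SD, n = 3) and 113.0 ± 11.5 CPM (SD, n = 3), had a difference of 0.22 on the log2 scale (edgeR adjusted p = 0.388).

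**Figure D2:**
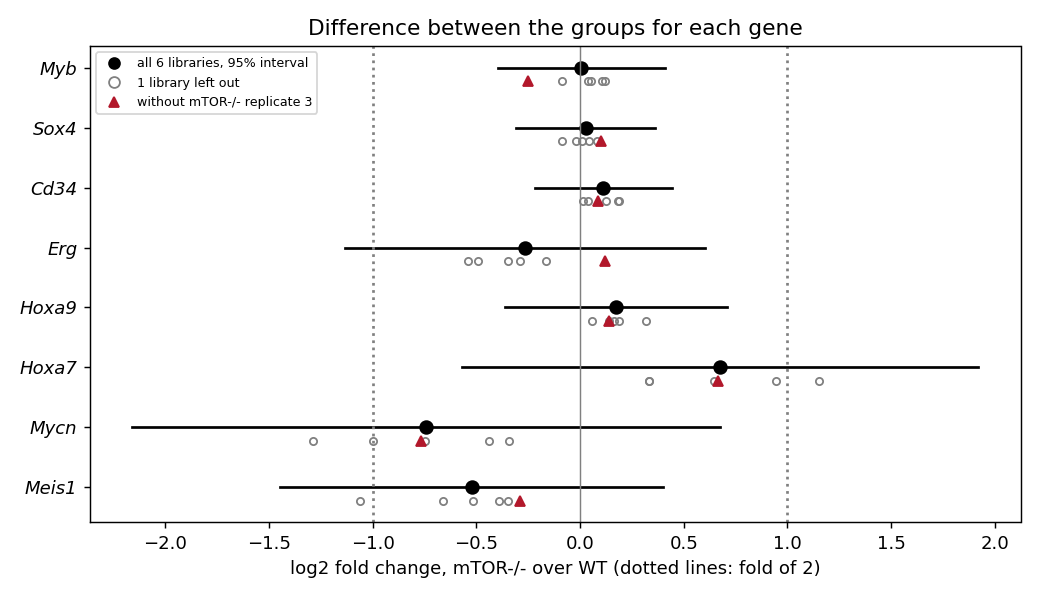
Log2 fold change of mTOR-/- over WT for each of the 8 genes (horizontal axis), with its 95% interval from all 6 libraries (black) and the values with 1 library left out (open circles; red triangle, without mTOR-/- replicate 3). Every interval crosses 0, those of Myb, Sox4, Cd34 and Hoxa9 stay between the dotted lines at a fold of 2, and the triangle of Erg lies on the other side of 0 from its point.

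The spread within groups was examined by setting each library against the mean of the other 2 of its group, in log2 CPM with a prior count of 2. Erg in mTOR-/- replicate 3 was the farthest value, at -1.77, and 2.11% of all tested genes were at least as far below in that library. Myb in the same library stood at 0.66, where 9.42% of tested genes were at least as far above. The other 6 genes in mTOR-/- replicate 3 differed by less than a fold of 2, and 8.76% of all tested genes there differed by more, the largest share of any library. Departures of more than a fold of 2 were also seen for Mycn in mTOR-/- replicate 1 (-1.60) and replicate 2 (2.38-fold higher), for Meis1 in mTOR-/- replicate 2 (1.18), and for Hoxa7 in WT replicate 1 (1.14) and WT replicate 3 (-1.28). Thus the departing library differed from gene to gene, and Cd34, Sox4, Myb and Hoxa9 had no departure of that size.

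**Figure D3:**
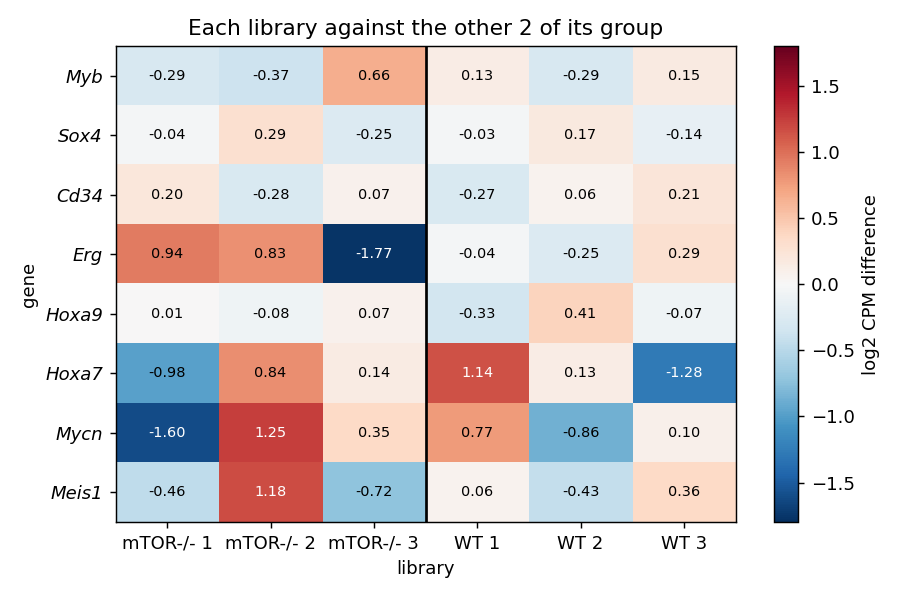
Difference in log2 CPM between each library (columns) and the mean of the other 2 libraries of its group, for each of the 8 genes (rows); red is higher and blue is lower. Erg in mTOR-/- replicate 3 is lowest at -1.77, while Cd34, Sox4 and Hoxa9 stay within 0.41 of 0 in all 6 libraries.

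For each of the 8 genes the tested gene with the most similar profile was sought, by the root mean square difference between log2 CPM values centred on their means over the 6 libraries. For Erg it was Gng12, which encodes a G protein subunit, with a difference of 0.08 on the log2 scale. Gng12 had 2059, 1954 and 659 counts in mTOR-/- replicates 1, 2 and 3 and 2250, 2204 and 2439 counts in the WT replicates, so it too was low in mTOR-/- replicate 3 alone. For Cd34 it was Id2, an inhibitor of HLH transcription factors, with a difference of 0.04, for Sox4 Ddx49 with 0.03 and for Myb Gm16973 with 0.06. The nearest profiles to Hoxa9, Meis1, Mycn and Hoxa7 were those of 4930402H24Rik (0.06), Vkorc1 (0.13), 2810001G20Rik (0.08) and Lcat (0.17). These are the nearest among 12537 genes over only 6 libraries, a description with no test.

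Other genes of the progenitor program were counted in lists. Of 11 Hoxa genes, 4 were tested, Hoxa9 and Hoxa7 included. Of the 4, 3 had higher values in the mTOR-/- libraries, beside 50.6% of all tested genes, and 0 were DEGs, beside 1.69%. Their median log2 fold change was 0.42. Hoxa10, the homeobox gene next to Hoxa9 and the only one with an unadjusted p under 0.05, was picked on its values. Counts were 45, 42 and 31 in the mTOR-/- replicates and 17, 16 and 29 in the WT replicates, a difference of 1.08 on the log2 scale (SE 0.46, edgeR adjusted p = 0.219). All 11 Hoxa genes together summed to 16.2 to 19.3 CPM under mTOR-/- and 11.4 to 13.6 CPM under WT. Hoxa11 and Hoxa13 had 0 counts in every library. Of 9 HOX cofactors of the TALE class, to which Meis1 belongs, 7 were tested. Of these 0 were DEGs, beside 1.69% of all tested genes, and log2 fold changes ran from -0.67 to 0.38. The most abundant, Pbx2 and Pknox1, were at -0.14 and 0.37, the latter 0.19 without mTOR-/- replicate 3. Of the relatives of the other genes 6 were tested and 0 were DEGs, beside 1.69% of all tested genes. Fli1, an ETS factor close to ERG, had a difference of -0.14 on the log2 scale (edgeR adjusted p = 0.546), or -0.04 without mTOR-/- replicate 3.

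Of the genes of the histone-modifying complexes that act on Hox genes 0 were DEGs, beside 1.69% of all tested genes. At that share lists of this size would hold few or none. MLL, menin and DOT1L complexes keep Hox genes active, and of their 13 genes, all tested, 0 were DEGs and the median log2 fold change was 0.05. Mllt3, which links DOT1L to transcription elongation, was the only 1 of them with an adjusted p under 0.05, at 25.2 ± 2.52 CPM under mTOR-/- and 40.1 ± 1.65 CPM under WT (mean ± SD, n = 3 each). Its fold change of under 2 (log2 fold change -0.67, adjusted p = 0.0257, edgeR) kept it from being a DEG, and its adjusted p was under 0.05 in 2 of 6 when libraries were dropped singly. The abundant Aff1 and Aff4 were at 0.05 and 0.08. Polycomb complexes silence Hox genes, and of their 16 genes, all tested, 0 were DEGs, with a median log2 fold change of 0.04. Ezh1 was at 0.21 and Suz12 at -0.07, the latter with a standard error of 0.40 and at 0.12 without mTOR-/- replicate 3.

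Among transcription factors of stem and early progenitor cells, 17 of 19 were tested, and 8 had higher and 9 lower values in the mTOR-/- libraries. Of the 17, 0 were DEGs, beside 1.69% of all tested genes. In the edgeR test 9 of them had an unadjusted p under 0.05, beside 21.2% of all tested genes. The groups did not overlap in CPM for 7, beside 28.4%. Gata2, a zinc finger factor of stem cells that mast cells also use, fell by less than a fold of 2. It was at 212.8 ± 22.02 CPM under mTOR-/- and 368.5 ± 50.9 CPM under WT (mean ± SD, n = 3 each), a difference of -0.79 on the log2 scale (SE 0.12, edgeR adjusted p = 0.00973). Left out 1 library at a time, its adjusted p stayed under 0.05 in 4 of 6 fits. The abundant Ldb1, a bridge between GATA and LMO2 proteins, was at 0.38 (adjusted p = 0.191, edgeR), or 0.18 without mTOR-/- replicate 3. Some genes of this list, chosen after their values were seen, varied widely among the mTOR-/- libraries. Mecom had 0, 5 and 43 counts in mTOR-/- replicates 1, 2 and 3 and 8 to 14 in the WT libraries, and like Erg it departed in replicate 3. Lmo2 had 435, 757 and 1113 counts, rising from each replicate to the next, against 548 to 582 in the WT libraries. Without mTOR-/- replicate 3 the log2 fold change of Mecom went from 0.54 to -2.06 and that of Lmo2 from 0.59 to 0.24, none of them past the threshold.

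Receptors and surface proteins of stem and early progenitor cells held the most DEGs of the progenitor lists. Of 16, 11 were tested, and 3 fell past the threshold while 0 rose past it, beside 0.654% and 1.04% of all tested genes. The 3 were DEGs also without mTOR-/- replicate 3, while the median log2 fold change of the list moved from -0.46 to -0.10. Adgrg1, the adhesion receptor GPR56, was at 8.23 ± 3.47 CPM under mTOR-/- and 53.5 ± 0.871 CPM under WT (mean ± SD, n = 3 each), a difference of -2.70 on the log2 scale (SE 0.27, edgeR adjusted p = 0.00124). Ly6a, which encodes the stem cell antigen Sca-1, was at 6.19 ± 0.744 CPM (SD, n = 3) and 16.6 ± 2.84 CPM (SD, n = 3), a difference of -1.42 on the log2 scale (edgeR adjusted p = 0.0072). Kit, the receptor of stem cell factor, was at 74.9 ± 9.37 CPM (SD, n = 3) and 155.4 ± 3.00 CPM (SD, n = 3), a difference of -1.05 on the log2 scale (SE 0.11, edgeR adjusted p = 0.00139). Adgrg1 and Ly6a were DEGs in all 6 fits with a library dropped, and Kit in 5, its fold falling just short without mTOR-/- replicate 2 (log2 fold change -0.98). Cxcr4, the chemokine receptor that holds progenitors in marrow, fell by 0.52 on the log2 scale (adjusted p = 0.0179, edgeR), and Prom1, the CD133 antigen, rose by 0.67 (adjusted p = 0.00928, edgeR). Each of these had an adjusted p under 0.05 in 3 of 6 such fits. Whether these differences exceed those of the 8 genes was not tested.

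Kit and Gata2 are also genes of mast cells and basophils, and mouse mast cells carry CD34 too. Of 10 mast cell and basophil markers, 9 were tested, 8 had lower values in the mTOR-/- libraries and 4 fell past the threshold: Cpa3, Hdc, Mcpt8 and Kit. Without mTOR-/- replicate 3 these were 3, Mcpt8 being lost (edgeR adjusted p = 0.0353 with it and 0.0771 without). Of all tested genes 50.6% had higher values in the mTOR-/- libraries, 0.654% fell past the threshold and 1.04% rose past it. The levels of the 10 markers summed to 553.1 to 628.5 CPM under mTOR-/- and 1562 to 1652 CPM under WT. Cpa3, mast cell carboxypeptidase, fell by 2.37 on the log2 scale (adjusted p = 9.53e-05, edgeR) and Hdc, which makes histamine, by 1.33 (adjusted p = 0.000101, edgeR). The values of Cd34 overlapped between the groups. In bulk RNA fewer cells of a type cannot be told apart from less RNA per cell, and the part of these markers in the values of Kit and Gata2 was not tested. Erythroid and megakaryocyte markers, some of them shared with early progenitors, summed to 136.9 to 174.0 CPM under mTOR-/- and 196.1 to 240.9 CPM under WT, with Car1 at 0 in every library. Of these 11 markers 5 were tested and 0 were DEGs, beside 1.69% of all tested genes. Without mTOR-/- replicate 3 there were 2, Hbb-bt and Itga2b, beside 1.45% of all genes tested in that fit. The most abundant, Pf4 and Itga2b, were at -0.14 and -0.79 with all libraries (edgeR adjusted p = 0.620 and 0.0314). Endothelial markers, which matter for Erg and Cd34 because endothelial cells use both, summed to 139.7 to 193.7 CPM and 235.0 to 241.4 CPM, most of it from Pecam1, which monocytes share and which fell by 0.65 on the log2 scale (edgeR adjusted p = 0.0244). Of the defining endothelial genes, Tek was at 0 in every library and Cdh5 had at most 5 counts. Kdr, the VEGF receptor, had 113 to 346 counts and did not pass the test (log2 fold change -0.49, edgeR adjusted p = 0.429). Tie1 rose by 3.46 on the log2 scale (edgeR adjusted p = 0.000707), the only DEG of 4 tested, beside 1.69% of all tested genes. Dendritic cell markers summed to 194.1 to 266.2 CPM under mTOR-/- and 68.4 to 158.1 CPM under WT. Ccr7 was the only DEG of 5 tested, beside 1.69% of all tested genes (1.26 on the log2 scale, edgeR adjusted p = 0.0314, and 0.0612 without mTOR-/- replicate 3). The most abundant, Itgax, was at 0.92 (edgeR adjusted p = 0.0987) and did not pass. The part of these cell types in the values of the 8 genes was not tested.

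Genes of the next stage, the granulocyte-monocyte progenitor, were 11, of which 10 were tested and 2 fell past the threshold, 1 of them without mTOR-/- replicate 3. With all 6 libraries 0.654% of all tested genes fell past it. Ctsg, the granule protease cathepsin G, was at 27.2 ± 9.09 CPM under mTOR-/- and 71.1 ± 15.6 CPM under WT (mean ± SD, n = 3 each), a difference of -1.39 on the log2 scale (edgeR adjusted p = 0.0207). Cst7, the protease inhibitor cystatin F, was at 33.7 ± 7.12 CPM (SD, n = 3) and 73.1 ± 4.999 CPM (SD, n = 3), a difference of -1.12 on the log2 scale (edgeR adjusted p = 0.00642). Ctsg was a DEG in 4 of 6 fits with a library dropped, being lost without WT replicate 1 (adjusted p = 0.0853, edgeR) and without WT replicate 3 (adjusted p = 0.0926), and Cst7 in 5, its log2 fold change being -0.97 without mTOR-/- replicate 3. Of 12 monocyte maturation genes 11 were tested, and 4 had higher and 7 lower values in the mTOR-/- libraries. Of the 11, 0 were DEGs, beside 1.69% of all tested genes. In the edgeR test 7 had an unadjusted p under 0.05, beside 21.2% of all tested genes, and 7 had groups that did not overlap in CPM, beside 28.4%. Their median log2 fold change was -0.06, or 0.004 without mTOR-/- replicate 3. The endotoxin co-receptor Cd14 rose by less than a fold of 2 (log2 fold change 0.95, adjusted p = 0.00128, edgeR), as did Csf1r, the M-CSF receptor (log2 fold change 0.50, adjusted p = 0.0136, edgeR, with an adjusted p under 0.05 in 3 of 6 fits that left out 1 library). Adgre1, which encodes F4/80, was at -0.35 (adjusted p = 0.145, edgeR). All 20 cell division genes were tested, 19 had lower values in the mTOR-/- libraries and 0 were DEGs, with a median log2 fold change of -0.19. Of all tested genes 50.6% had higher values in the mTOR-/- libraries and 1.69% were DEGs. Cdk1, the mitotic kinase, and Rrm2, a ribonucleotide reductase subunit, fell by 0.72 and 0.62 on the log2 scale (adjusted p = 0.0259 and 0.0483, edgeR), with an adjusted p under 0.05 in 2 and 1 of those 6 fits. The most abundant, Top2a and Mki67, were at -0.47 and -0.03 and did not pass.

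**Figure D4:**
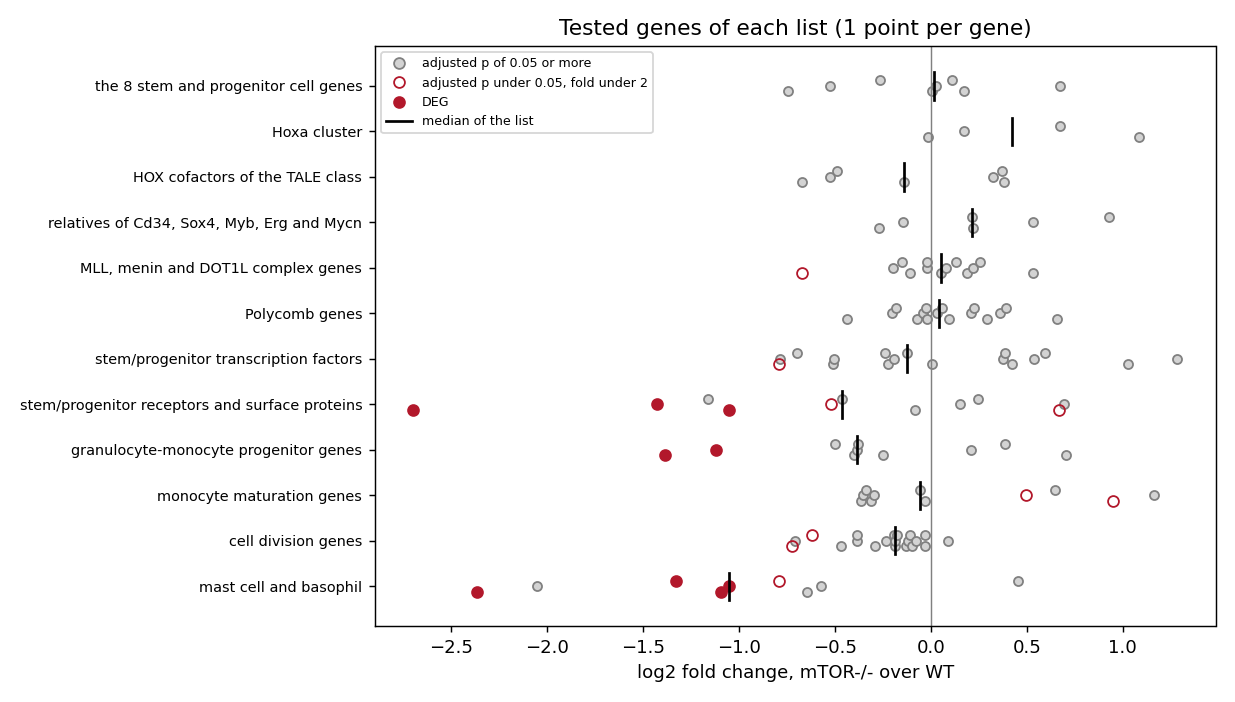
Log2 fold change of mTOR-/- over WT (horizontal axis) for the tested genes of each list, 1 point per gene, with the median of each list as a black bar; filled red points are DEGs and open red circles had an adjusted p under 0.05 with a fold of under 2. The 8 stem and progenitor cell genes hold no red point, while the receptors and surface proteins hold 3 filled points, all at lower values in mTOR-/-.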

How the data were processed

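The deposited table holds, for 34745 genes in 6 libraries, whole-number counts that the authors made and FPKM values by the authors. The study's methods name Bowtie2, mm10 and HTSeq, while the submitters' processing notes list HISAT2 2.0.4 and StringTie 1.3.0. The strand setting of the counting was not given in the sources used here, so antisense genes may share reads. The deposited FPKM values equal counts divided by a gene length and the total count. The authors' own comparison of the groups was not used, nor were 24 columns that repeat counts and FPKM in other files.

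The test was run in R 4.3.3 with edgeR 4.0.16 (filterByExpr, minimum count 10 and minimum total 15; TMM; quasi-likelihood F test; Benjamini-Hochberg over 12537 genes), with DESeq2 1.42.0 as an alternative. The fit was tested on simulated data. Standard errors and 95% intervals come from the edgeR fit, and Poisson intervals cover counting error only. Members and lists were chosen with earlier results of these data known. By rule, up to 6 DEGs of each gene list were named and, where fewer than 2 were DEGs, also the 2 with the highest mean count. For marker lists up to 4 DEGs and the 2 tested genes with the highest mean count were named. For each of the 8 genes the tested gene with the most similar profile was named. List genes with an adjusted p under 0.05 but a fold of under 2, Hoxa10, Mecom, Lmo2 and markers at or near 0 fall outside that rule where they are not among the most abundant, and were named after their values were seen. The alternatives were RLE and upper-quartile normalization, DESeq2, the exact test, other filters, no fold threshold, each library left out and a replicate block.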

Additional observations from a re-analysis of the deposited data

How the results depend on the processing

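In every one of the 13 alternative fits 0 of the 8 genes were DEGs, and without a fold change threshold the number was also 0. Of 103 values of the 8 genes over these fits, 94 kept the direction of the first fit and 9 did not, and the lowest adjusted p of any was 0.138. Mycn had no value with at least 10 counts in every library. The log2 fold change of Myb was -0.0008 with DESeq2, -0.009 without a filter on low counts, -0.0009 with at least 10 counts in every library, -0.0213 with the replicate block, -0.25 without mTOR-/- replicate 3 and -0.09 without WT replicate 2. With 1 library left out the log2 fold change ranged from -0.2524 to 0.1186 for Myb, -0.0842 to 0.101 for Sox4, -0.5416 to 0.1203 for Erg, -0.5636 to 0.4999 for Suz12 and -0.1667 to 0.0904 for Mki67. Without mTOR-/- replicate 3, an alternative chosen after seeing the data, DEGs went from 2 to 1 among the granulocyte-monocyte progenitor genes and 1 to 2 among the monocytic MDSC markers. They went from 2 to 1 among neutrophil, 0 to 2 among erythroid and megakaryocyte, 4 to 3 among mast cell and basophil, and 1 to 0 among dendritic cell markers. Of all tested genes 1.69% were DEGs with that library and 1.45% without it. The number of DEGs over all tested genes, 212, became 507 without a fold threshold, 348 with DESeq2 and 379 with edgeR's exact test, and lay between 114 and 229 with 1 library left out. The cause was not tested. With the replicate block, the replicate number taken as a pair, 164 genes were DEGs and 0 of the 8. The deviations of same-numbered libraries correlated at -0.08, -0.03 and -0.06, and no library correlated best with its own number. No pairing was seen in these values and the labels name none, but a shared preparation was not tested. Counts of 5 to 84 per library limit what Mycn, Hoxa7 and Meis1 can show.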
